A study of Saccharomyces cerevisiae with 9 samples.

Results

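The transcriptome of Saccharomyces cerevisiae BY4743 given only the vehicle was described from the 3 arrays labelled vehicle control 1 to 3, out of 9 arrays in the series. Membership came from the sample titles alone. The other 6 arrays carried RNA of cells given HenGC or SoyGC, preparations from a mushroom and from soybean added at 40 ug/ml for 17 h, and were not used here. BY4743 is a diploid laboratory strain made by crossing 2 haploids of opposite mating type, and it is homozygous for deletions in HIS3, LEU2 and URA3. The labels do not name the vehicle, its volume, the medium or the growth phase, and they do not say whether the numbered samples were separate cultures. The spread between these arrays may therefore be technical. RNA extracted with hot phenol and a purification kit was turned into Cy3-labelled cRNA, and each sample was hybridised to its own 1-colour Agilent array.

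Budding yeast growing on sugar breaks it down by glycolysis and ferments pyruvate to ethanol even when oxygen is present, while genes for using other carbon sources are held down by glucose. Growing cells spend much of their transcription on ribosomal proteins, and a separate set of nucleolar factors, the ribosome biogenesis genes, assembles ribosomal RNA and proteins into subunits. In a diploid that carries both mating types, the a1 and alpha2 proteins form a repressor that shuts off haploid-specific genes, and the genes of meiosis stay off until starvation.

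Leaving controls aside, an array carried 43792 spots from 6256 probes in 7 copies, and the probes covered 6199 genes. The value used was the processed signal, a linear fluorescence intensity. A gene's level is log2 of that signal minus log2 of the array's 75th percentile, so that a level of 0 marks the 75th percentile, which was 6852, 6447 and 6794 on vehicle 1, 2 and 3. The 25th percentile was 764, 683 and 550, and 0 spots were saturated. Between 93.8% and 95.8% of spots lay well above background by the software's own mark, 0.754% to 0.936% were marked as outliers and left out, and spots of the same probe varied by 4.2% to 4.58%. Vehicle 1 and 2 lay on the same slide and were scanned on the same day, and vehicle 3 lay on another slide scanned on another day. Slide, scan day and sample therefore cannot be told apart for vehicle 3. The number of arrays limits the precision of every value, and with 1 array against 2 no test was made and no p-value is given.

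The control spots set vehicle 3 apart before any yeast gene was considered. Agilent's 1-colour design carries 10 probes named E1A, each in 32 spots, for transcripts that can be added to the RNA before labelling. The labels do not say whether they were added. The brightest, E1A_r60_1, read 36466 on vehicle 1, 38898 on vehicle 2 and 5406 on vehicle 3. For the 5 brightest E1A probes the mean signal of vehicle 1 and 2 was 5.56 to 6.97 times that of vehicle 3. Relative to the 75th percentile the 5 probes averaged −0.94, −0.67 and −3.44 on the log2 scale. Negative control spots had a median signal of 4.34 on vehicle 1, 3.82 on vehicle 2 and 7.40 on vehicle 3. Vehicle 3 was thus low at the E1A probes and high at the negative controls, and the part of either in the gene differences given later was not tested.

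**Figure D1:**
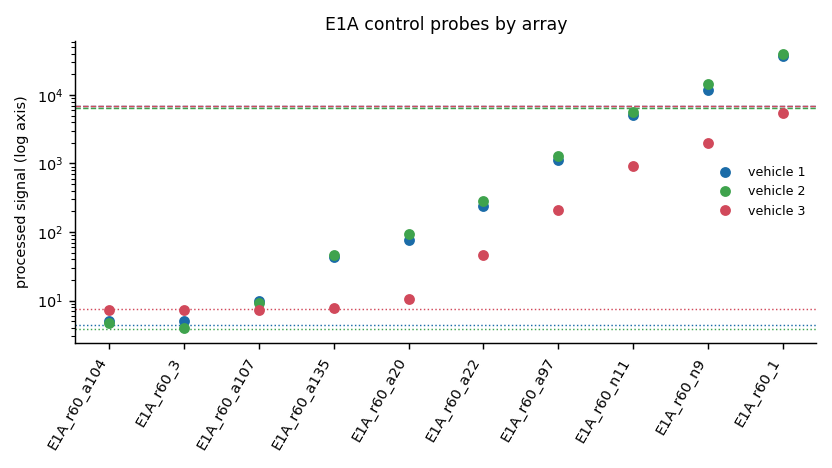
Processed signal (log axis) of the 10 E1A control probes on each vehicle array, ordered by signal; dashed lines mark each array's 75th percentile and dotted lines the median of its negative control spots. At the brightest probe vehicle 3 reads 5406 against 36466 and 38898, while the 3 dashed lines nearly coincide at 6447 to 6852.

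Of the 6199 genes, 5797 were well above background on all 3 arrays, a share of 93.5%, and 256 were well above background on none, a share of 4.13%. The remaining genes were marked on 2 arrays in 118 cases and on 1 array in 28. Genes of the current annotation were marked far more often than older open reading frame names. Of 5734 protein-coding genes in the RefSeq gene table, 5543 were marked on all 3 arrays and 112, or 1.95%, on none. Of 462 open reading frame names that the table lacks, 251 were marked on all 3 arrays and 144, or 31.2%, on none. Position on the chromosome went with detection as well. Among the 10 outermost genes of each chromosome end, 24 of 303 were not detected, which is 7.92%, against 85 of 5412 other nuclear coding genes, which is 1.57%.

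The 112 coding genes that stayed at background held 56 with a gene symbol, 1.07% of 5217, and 56 known only by a systematic name, 10.8% of 517. Their median coding length was 486 bases, against 1222.5 over all coding genes. Among the described gene groups, 16 of 53 measured genes of meiosis and sporulation were in this set, beside 112 of 5734 coding genes. So were 4 of 19 hexose transporters (HXT13, HXT14, HXT15 and HXT16). SOR1 and SOR2, the sorbitol dehydrogenases, were both undetected, among 4 measured genes of invertase and alternative sugars. Probes of 1 gene family may share labelled RNA, which was not tested, so such genes may not be separate observations. HIS3, LEU2 and URA3 belonged to the same set. A probe that is not well above background is weakly bound by labelled RNA, and the mark does not show that the transcript was absent.

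The strain label was checked against the genes deleted in BY4743. HIS3, an enzyme of histidine synthesis, read −10.18, −9.96 and −9.86 on vehicle 1, 2 and 3. LEU2 of leucine synthesis read −10.35, −10.44 and −9.91, and URA3 of uracil synthesis −10.62, −10.70 and −9.84. All were below the lowest level that any probe well above background had on the same array, −8.53, −8.56 and −7.69. The HIS3 deletion of this strain background is partial, and whether the array's probe lies inside it was not examined. MET17 and LYS2, each deleted on a single homologue in BY4743, were detected on every array, with levels of 2.34 ± 0.14 (SD, n = 3) and 0.45 ± 0.21.

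Genes of the haploid programme were weak. The 24 haploid-specific genes had a median at the 12.3 percentile of all genes by signal, where 100 is the brightest, and 0 of them reached the top 10%. STE2, the receptor for alpha factor, read −5.48, −5.53 and −5.37, and STE3, the receptor for a factor, read −5.33, −5.17 and −5.18. The pheromone genes MFA1 and MF(ALPHA)1 averaged −5.85 ± 0.05 and −5.74 ± 0.09. AGA2, the binding subunit of a-agglutinin, was the weakest of the detected members at −7.42 ± 0.32. HO, the endonuclease of mating type switching, was marked on vehicle 1 and 2 at −7.93 and −8.09 but not on vehicle 3.

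A few genes of the list were brighter. SAG1, the alpha-agglutinin, averaged −2.04 ± 0.31, RDH54, a recombination helicase, −2.46 ± 0.09, STE4, the G protein beta subunit, −2.55 ± 0.14, and RME1, a repressor of meiosis, −2.58 ± 0.05. They lay between the 34 and 43.0 percentiles. All 23 members detected on every array lay below the 75th percentile of the spots.

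The mating type genes were detected on all 3 arrays. HMRA1, which encodes a1, read −0.69, −0.77 and −1.94. HMLALPHA2, which encodes alpha2, read −1.80, −1.80 and −4.01, and HMLALPHA1, which encodes the activator alpha1, read −3.61, −3.44 and −3.34. Vehicle 3 was lower than both other arrays for HMRA1 and HMLALPHA2 and not for HMLALPHA1. The probes cannot separate the copies at the mating type locus from those at the silent loci.

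Meiosis and sporulation made up the weakest of the 42 gene lists, with a median at the 8.04 percentile. Of 53 measured members, 30 were detected on all 3 arrays, 16 on none and 7 on 1 or 2. IME1, the master activator of meiosis, read −5.75, −6.01 and −6.70, and the protein kinase gene IME2 averaged −5.30 ± 0.20. NDT80, the activator of the middle sporulation genes, averaged −3.17 ± 0.37. ZIP1, of the synaptonemal complex, was undetected on every array, while the recombinase gene DMC1 averaged −4.38 ± 0.29 and HOP1, of the chromosome axis, −5.61 ± 0.09. The brightest member was OSW2, a spore wall gene, at −1.76 ± 0.17. The recombination and synapsis genes were detected on all 3 arrays in 9 of 19 cases, the spore formation genes in 15 of 28, and the regulators in 6 of 6.

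**Figure D2:**
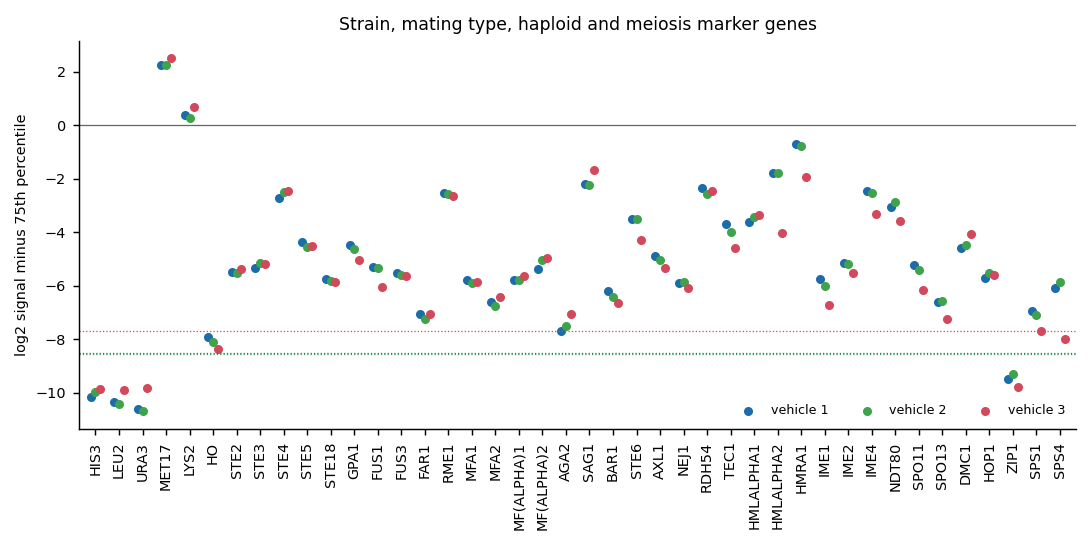
Level (log2 signal minus the array's 75th percentile) of the strain, mating type, haploid and meiosis marker genes on each vehicle array; dotted lines mark the lowest level of a probe well above background on each array. HIS3, LEU2, URA3 and ZIP1 lie below all of these lines, MET17 and LYS2 above 0, and STE2, STE3 and the pheromone genes at −4.95 or lower.

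Ranks between genes are ranks of probe signal, since probes differ in how strongly they bind. For 25 genes with more than 1 probe detected on all 3 arrays, the brightest and dimmest probe differed by a median of 1.68 on the log2 scale (range 0.006 to 4.55), and by more than 1 for 17 genes. The place of any 1 gene in the order is uncertain by about that much.

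Glycolysis stood at the top. Its 17 genes had a median at the 99.4 percentile, 16 of them in the top 10%, and together they took 6.36% ± 0.10 (SD, n = 3) of the signal summed over all genes. GPM1, phosphoglycerate mutase, was the brightest gene by its mean, with levels of 6.13, 6.18 and 6.29. ENO2, enolase, read 6.12, 6.13 and 6.19, and TPI1, triose phosphate isomerase, read 6.10, 6.18 and 6.16. The arrays of these genes overlapped, so their order is within the spread between arrays. FBA1, aldolase, averaged 6.14 ± 0.05, TDH1 and TDH3, of glyceraldehyde phosphate dehydrogenase, 6.13 ± 0.03 and 5.97 ± 0.06, CDC19, the main pyruvate kinase, 5.93 ± 0.01, and PGK1, phosphoglycerate kinase, 5.90 ± 0.04. The exception was PYK2, the minor pyruvate kinase, at −1.46 ± 0.11 and the 53.2 percentile. The upper steps had a median at the 98.2 percentile and the lower steps at 99.8.

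Fermentation genes split by isozyme. ADH1, the alcohol dehydrogenase that makes ethanol, read 6.11, 6.19 and 6.19, and PDC1, the main pyruvate decarboxylase, averaged 5.82 ± 0.02. ADH2, the isozyme that consumes ethanol and is repressed by glucose, read −5.11, −5.12 and −4.73, at the 13.7 percentile. PDC6 read −3.80, −3.92 and −3.94 and PDC5, another decarboxylase isozyme, 2.45, 2.37 and 2.95. Over the 10 genes the median was at the 93.9 percentile.

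Gluconeogenesis and the glyoxylate cycle had a median at the 36.0 percentile over 13 genes, all of them detected. FBP1, fructose bisphosphatase, read −3.89, −3.58 and −3.17. SFC1, the mitochondrial succinate and fumarate carrier, averaged −6.45 ± 0.42, and SIP4, a regulator of gluconeogenesis, −6.95 ± 0.21. ACO1, aconitase, which the tricarboxylic acid cycle shares, was the brightest at 2.81 ± 0.05. The enzymes as a group had a median at the 36.5 percentile and the 3 regulators at 36.0.

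Hexose transporters spanned nearly the whole range of the array. HXT7, a high-affinity transporter, read 5.20, 5.01 and 5.17, at the 99.2 percentile. The 5 transporters of low and intermediate affinity had a median at the 90.5 percentile, with HXT1, the low-affinity transporter induced by high glucose, at 2.08, 1.96 and 2.49. Of the 10 other family members, 4 were detected on all 3 arrays and 4 on none. HXT17 averaged −7.08 ± 0.06 and HXT8 −6.37 ± 0.22. HXT6 and HXT7 are nearly identical in sequence, so the signal of either probe may come from both genes.

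Genes for other sugars lay low. The 7 galactose genes had a median at the 16 percentile. GAL1, galactokinase, read −4.64, −4.47 and −4.52, GAL10, the epimerase, was marked on 1 array only, and the repressor gene GAL80 averaged −1.54 ± 0.33. The 9 maltose genes had a median at the 20 percentile, from the maltase gene MAL32 at −5.76 ± 0.06 to the permease gene MAL31 at −0.87 ± 0.07. SUC2, invertase, read −0.02, −0.06 and 0.08, close to the 75th percentile on every array.

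Respiration was not low. The tricarboxylic acid cycle had a median at the 90.7 percentile, with 10 of 17 genes in the top 10%, and CIT3, the minor mitochondrial citrate synthase, was its weakest member at −5.04 ± 0.06. The 35 nuclear genes of the respiratory chain had a median at the 80.3 percentile, from NDE2, an external NADH dehydrogenase, at −3.53 ± 0.21, to ATP2, the beta subunit of ATP synthase, at 3.57 ± 0.13. Of 8 genes encoded in mitochondrial DNA, 7 were detected on all arrays. OLI1, ATP synthase subunit 9, read 5.74, 5.71 and 5.02, and VAR1, a mitochondrial ribosomal protein, read −6.73, −6.56 and −8.50 and was marked on vehicle 1 and 2 alone. Both were lowest on vehicle 3, but the list as a whole was not. For the 7 genes detected on all arrays, vehicle 3 minus the mean of vehicle 1 and 2 had a median of 0.23 and was negative for 2. ATP8, of ATP synthase, was highest on vehicle 3, at 0.15, −0.22 and 0.63.

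Cytosolic ribosomal proteins took the greatest share of signal of the lists. Their 136 measured genes held 22.5% ± 0.60 (SD, n = 3) of the summed signal, and 127 of them were in the top 10% of genes. Small subunit genes had a median at the 97.9 percentile and large subunit genes at 97.1. RPS2 averaged 6.0 ± 0.03 and RPP0, of the ribosomal stalk, 5.83 ± 0.05. The weakest were RPL7B at −3.01 ± 0.10, the 28.5 percentile, and RPS14B at 1.23 ± 0.11. For 58 pairs of duplicated ribosomal protein genes the levels differed by a median of 0.60, and by more than 1 for 19 pairs. Copies that are nearly identical share labelled RNA, and their separate levels are uncertain.

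Translation factors had a median at the 90.7 percentile over 29 genes. TEF2 and TEF1, which encode the same elongation factor, averaged 6.09 ± 0.04 and 5.89 ± 0.04. TIF5, an initiation factor, was the weakest at −1.44 ± 0.09. The 120 ribosome biogenesis genes lay much lower than the ribosomal proteins, with a median at the 57.8 percentile and 2 in the top 10%. Their brightest member was SNU13, a snoRNP protein, at 2.50 ± 0.26, and their weakest RRP14 at −5.35 ± 0.81. RNA polymerase I and III had a median at the 57.1 percentile, and RPA190, the largest subunit of polymerase I, averaged 0.89 ± 0.12. Mitochondrial ribosomal proteins lay at the 54.4 percentile with 0 of 62 in the top 10%.

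Cell wall proteins were bright: 27 of 35 lay in the top 10%, the median was at the 95.3 percentile, and the list took 4.44% ± 0.29 (SD, n = 3) of the signal. CCW12, a mannoprotein, read 5.92, 5.90 and 6.07, and SED1, a stress-induced wall protein, 5.76, 5.81 and 5.88. DAN4, a wall mannoprotein of anaerobic cells, was the weakest at −0.82, −0.63 and 0.03. The related seripauperins, a family of 24 near-identical genes known for induction by anaerobiosis, lay between PAU23 at the 33.6 percentile and PAU6 at 73.5, with a median at 61.5.

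Membrane lipid genes were above most genes. Ergosterol synthesis had a median at the 93.1 percentile over 24 genes, from ERG12, mevalonate kinase, at −0.95 ± 0.09 to ERG2, sterol isomerase, at 4.13 ± 0.22. Fatty acid and phospholipid synthesis had a median at 83.7, led by OPI3, a phospholipid methyltransferase, at 5.50, 5.57 and 5.56. The 30 sphingolipid genes, the pathway named in the title of the study, had a median at 82.0 and were all detected on every array. DPL1, the lyase that breaks down long-chain base phosphates, read 2.08, 2.23 and 2.30, and LCB5, a minor long-chain base kinase, was weakest at −2.23, −2.21 and −2.44. Long-chain base and ceramide synthesis lay at the 81.4 percentile, complex sphingolipids and turnover at 69.6, and fatty acid elongation at 90.2.

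Protein folding and stress genes were bright. Chaperones had a median at the 93.0 percentile, with CPR1, cyclophilin, at 4.58 ± 0.08 and the inducible Hsp70 gene SSA3 at −3.07 ± 0.09. The 39 general stress genes had a median at 88.7, from SIP18 at −4.69 ± 0.16 to HOR7 at 4.97 ± 0.11. Antioxidant enzymes lay at 86.3, led by SOD1, superoxide dismutase, at 4.70 ± 0.04, while SRX1, sulfiredoxin, read −5.19 ± 0.06. Proteasome genes lay at 84.6, with PRE5, a core subunit, at 2.19 ± 0.10. Amino acid biosynthesis had 33 of 48 genes in the top 10% and a median at 92.3, from ARG3 at −2.81 ± 0.23 to GLN1, glutamine synthetase, at 4.67 ± 0.10.

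Genes of division were spread widely. The 11 histone genes had a median at the 92.9 percentile, and 7 were in the top 10%, with HHT2, histone H3, at 3.67 ± 0.05, and CSE4, the centromeric histone, at −4.65 ± 0.92. The 24 cell cycle regulators had a median at the 26.9 percentile and 0 in the top 10%. CLB1, a mitotic cyclin, was the brightest at 0.32 ± 0.10 and MBP1, a regulator of the G1 to S transition, the weakest at −5.68 ± 1.34. DNA replication genes lay at 52.4, from CDC6 at −4.41 ± 0.13 to RNR2, of ribonucleotide reductase, at 4.27 ± 0.04.

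**Figure D3:**
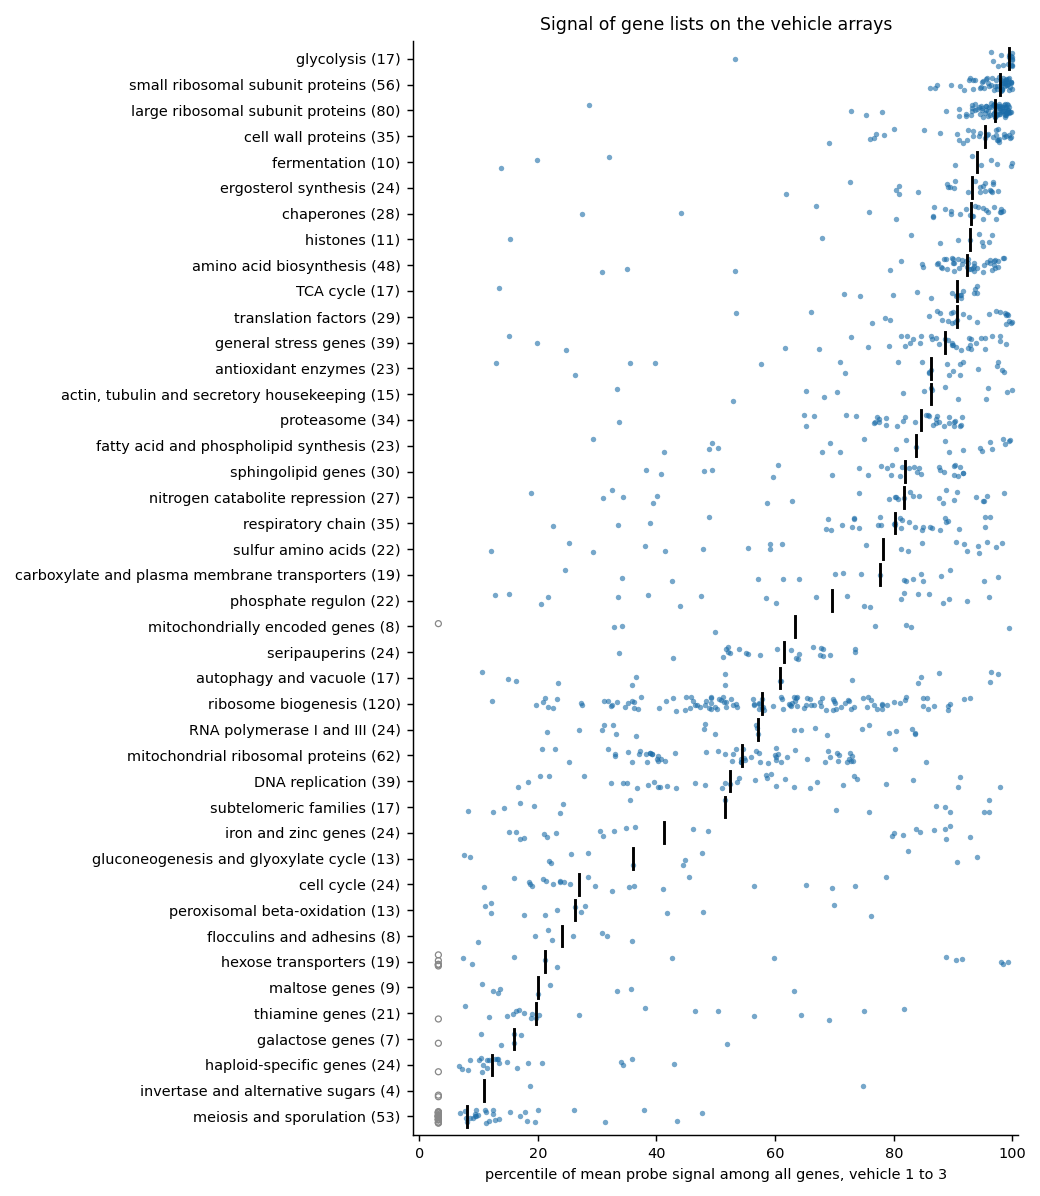
Percentile of the mean signal over the 3 vehicle arrays among all 6199 genes (100 is the brightest) for every measured member of 42 gene lists; points are genes, black bars list medians, and open circles genes detected on 0 arrays or on 1 or 2, which share the bottom rank. Medians run from 99.4 for glycolysis to 8.04 for meiosis and sporulation.

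The signal was concentrated in few genes. The 20 brightest took 10.7% ± 0.08 (SD, n = 3) of the summed signal, the 100 brightest 34.1% ± 0.14 and the 500 brightest 69.9% ± 0.41. Among the 100 brightest were 42 cytosolic ribosomal protein genes, 12 of glycolysis, 8 translation factors and 7 cell wall genes, and 84 belonged to a described list. Among the 20 brightest were GPM1, ADH1, ENO2, TPI1, FBA1, TDH1, TEF2, RPS2, TDH3, CCW12, CDC19, PGK1, TEF1, RPS31, YDR133C, RPS3, RPP0, PDC1 and SED1, from 6.20 down to 5.82. Of those named, all but YDR133C, an open reading frame name outside the gene table, are genes of glycolysis, fermentation, translation or the cell wall. Of the 10 weakest genes detected on every array, SWC7, a subunit of a chromatin remodelling complex, at −7.67 ± 0.20, had a gene symbol. The other 9 were YKR032W, YMR294W-A, YCL023C, YIL141W, YDR269C, YPL261C, YER181C, YLR236C and YCR087W, with levels from −7.89 to −7.53.

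Vehicle 1 and 2 were close. Among the 5797 genes detected on all arrays, 459 were over 1.2-fold apart between them, a share of 7.92%, of which 321 were higher on vehicle 1 and 138 on vehicle 2. Only 19 were over 1.5-fold apart and 0 over 2-fold. ROX1, the repressor of hypoxic genes, was furthest apart and read −2.55, −3.52 and −2.52, so that vehicle 2 stood below the other arrays. YML122C read −5.51, −6.43 and −5.87. PBI1 read 0.73, 1.51 and 1.57, with vehicle 1 below the others. PRM7, RRP36 and ECM13, the next furthest, each differed by 0.73 and were all higher on vehicle 1.

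Over the 3 arrays the median SD of a gene was 0.16 on the log2 scale. It was under 0.1 for 1566 genes, which is 27.0%, and above 0.5 for 669, which is 11.5%. Of the 42 lists, glycolysis and the large ribosomal subunit had the smallest median SD, both 0.07, and ribosome biogenesis the largest at 0.39. The spots of a probe within an array differed by a median SD of 0.058 to 0.063, which leaves out any difference between slides, labellings or cultures.

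The widest gaps lay between vehicle 3 and the other arrays. Against the mean of vehicle 1 and 2, 492 genes were over 2-fold lower on vehicle 3, a share of 8.49%, and 12 were over 2-fold higher, a share of 0.207%. The SD of this difference over genes was 0.54, against 0.15 for vehicle 1 minus vehicle 2, and its median was 0.03. These differences are relative to the 75th percentile of each array. When the arrays were instead scaled to the 5 brightest E1A probes, 0 genes were over 2-fold lower and 5651 over 2-fold higher, and among the negative differences given below for genes detected on all arrays all but the 6 lowest would turn positive. The 492 genes had a median difference of −1.37, and 55 of them were over 4-fold lower. They were picked by this difference, so a large median follows from the choice. Their vehicle 1 and 2 levels differed by a median of 0.12, beside 0.09 over all genes detected on every array.

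**Figure D4:**
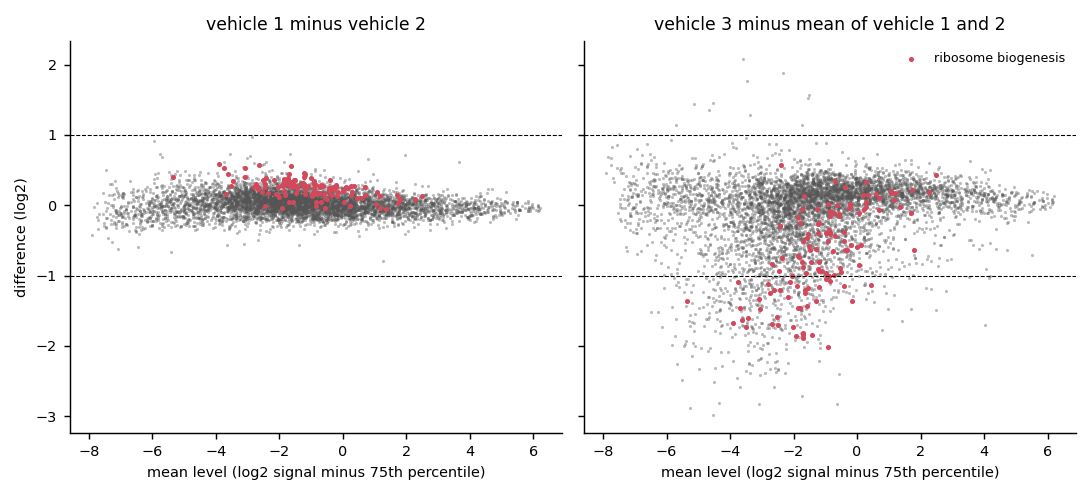
Difference in level (log2) against mean level for the 5797 genes detected on all 3 vehicle arrays, for vehicle 1 minus vehicle 2 (left) and vehicle 3 minus the mean of the other 2 arrays (right); red points are ribosome biogenesis genes and dashed lines mark 2-fold. No gene passes 2-fold on the left, whereas 492 lie below the lower line on the right and 12 above the upper line.

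The lower genes were mostly of weak or moderate signal. In 5 bins of equal size by mean level, 15.5%, 14.0%, 8.54%, 2.93% and 1.47% of genes were over 2-fold lower on vehicle 3, from the weakest bin to the brightest. The mean includes vehicle 3, so a gene low there is moved to a weaker bin. Coding length went with the difference less: in 5 bins by length the share was between 8.22% and 9.96%. Of 125 coding genes of up to 300 bases, 15 were lower, which is 12%. By chromosome the median difference ran from −0.04 for chromosome IV to 0.14 for chromosome I. The outermost genes of chromosome ends were lower in 9 of 272 cases, or 3.31%, against 479 of 5256, or 9.11%, of other nuclear coding genes, and the names outside the gene table in 3 of 251, or 1.2%.

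The 12 genes lowest on vehicle 3 were YML053C, VFA1, FUN30, RPN8, YKL063C, SET5, CTK1, RPN2, JLP2, JEM1, REV7 and ESC1, with differences from −2.98 to −2.41. RPN8, a subunit of the proteasome lid, read 0.31, 0.31 and −2.51, which is 7.09-fold lower on vehicle 3 than the mean of the other arrays. RPN2, of the proteasome base, read −1.76, −1.73 and −4.32. Vehicle 1 and 2 nearly coincided for both proteasome genes, and vehicle 3 stood apart. FUN30, a chromatin remodeller, read −2.06, −2.21 and −4.97. SET5, a histone methyltransferase, read −0.85, −0.80 and −3.53, and CTK1, the kinase of the RNA polymerase II tail, −2.76, −2.88 and −5.41. REV7, of the translesion DNA polymerase zeta, read −3.03, −2.87 and −5.42. For all 12 genes vehicle 1 and 2 differed by at most 0.32. Vehicle 3 lay far below, and the 12 genes were picked for that.

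The 12 genes higher on vehicle 3 were YPR002C-A, MOR1, YMR046W-A, FCY22, PAU17, YOL106W, YOR029W, YDR034C-A, YCR013C, YLR162W, YLR076C and YDR187C, of which 6 are in the gene table. YPR002C-A read −4.45, −4.13 and −2.21. FCY22, which resembles purine-cytosine permeases, read −1.93, −2.12 and −0.45, and PAU17, a seripauperin, −1.87, −2.25 and −0.54. For PAU17 vehicle 1 and 2 were themselves 1.30-fold apart, and vehicle 3 lay above both. At the 2-fold line, NHP10, SAS10 and SKT5 were just inside on the lower side and OPI10, GDS1 and YPR089W just outside, all at −1.0. On the higher side YDR187C was just inside at 1.01, and YNR077C and YMR244W were outside at 0.96 and 0.93. The probes of YNR077C ranged from 0.90 to 1.02, so they lay on both sides of the line. For the 25 genes with several probes the vehicle 3 difference varied between probes by a median of 0.15 and at most 1.35, for YPR089W, whose probes gave −1.0 and 0.36.

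A further 118 genes were detected on vehicle 1 and 2 but not on vehicle 3, and 0 genes on vehicle 3 alone. Vehicle 3 had a higher detection limit, −7.69 against −8.53 and −8.56 for the lowest probe well above background. With the vehicle 3 signal replaced by that limit where it lay below, 10 of the 118 genes were still more than 2-fold lower. That limit is the most lenient, since YLR217W was not marked on vehicle 3 at −7.09, so the folds are not strict lower bounds. By this rule KEL1, a kelch-domain protein of cell shape and mitotic exit, was 6.57-fold lower. The sporulation gene SPS4 was 3.30-fold lower, the meiotic recombination gene MSH4 2.74-fold and VAR1 2.07-fold. For vehicle 3 minus the mean of vehicle 1 and 2, the 5 brightest E1A probes averaged −2.64 on the log2 scale. By the same rule only KEL1 of the 118 genes had a larger gap, 2.72. These genes were named after their values had been seen.

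Ribosome biogenesis was the list with the most lower genes on vehicle 3. Of its 120 members 41, or 34.2%, were over 2-fold lower and 0 higher, beside 8.49% over all genes. A negative difference was found in 100 of the 120, beside 2709 of 5797 over all genes. The list median was −0.65, which became 1.99 when scaled to the E1A probes. Quantile normalization left 27 members over 2-fold lower. The 60S assembly factors were lower in 27 of 63 cases with a median of −0.94, the small subunit processome and 40S factors in 13 of 49 with a median of −0.59, and the snoRNP proteins in 1 of 8 with a median of −0.09. MAK21, a 60S assembly factor, read −0.13, −0.37 and −2.27 and was the lowest of the list. RRP14 read −4.70, −5.09 and −6.26. DBP6, a helicase of 60S assembly, went the other way with −2.41, −2.79 and −2.02, and SNU13 read 2.42, 2.29 and 2.79. The list also differed between the arrays of the shared slide: vehicle 1 was above vehicle 2 by a median of 0.25, beside 0.02 over all genes.

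Other lists of ribosome and polymerase assembly were nearer to the 8.49% of all genes that were over 2-fold lower. RNA polymerase I and III had 4 of 24 lower, a share of 16.7%. Of the 24 differences 13 were negative, beside 2709 of 5797 over all genes, and the list median was −0.03. RPA43, of polymerase I, read −1.07, −1.22 and −2.72, and RPC53, of polymerase III, −3.10, −3.35 and −4.41. RET1, the second-largest subunit of polymerase III, was highest on vehicle 3 at 0.45, 0.29 and 0.77. Mitochondrial ribosomal proteins had 7 of 62 lower, 11.3%, a share near that of all genes, the lowest being MRPS8 at −1.48, −1.60 and −3.36. Their median difference of −0.13 turned to 0.04 with median scaling and 0.03 with quantile normalization. Cytosolic ribosomal proteins had 2 of 136 lower, 1.47%. These were RPL39, at 4.64, 4.59 and 2.90, and RPL41B, at 3.14, 3.28 and 1.99. Both encode very short proteins, and the part of length was not tested. RPL41A, the other copy of RPL41B, was not over 2-fold lower, with a difference of −0.80. For the 58 duplicated pairs the vehicle 3 difference varied by a median of 0.08 between copies, and most for RPL24A at 0.01 and RPL24B at −0.83.

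Proteasome genes were lower in 5 of 34 cases, 14.7%, beside 8.49% of all genes, with a list median of −0.26, which became −0.08 with median scaling and 2.38 when scaled to the E1A probes. PRE8, a core subunit, was highest on vehicle 3 at 1.30, 1.35 and 1.66. Cell cycle regulators were lower in 4 of 24 cases, 16.7%, and in 2 with median scaling, quantile normalization or normexp. That share was no higher than among coding genes of like signal. In 10 bins of coding genes by mean level, the bins with median percentiles of 23.0 and 32.2 had 21.8% and 16.6% lower. The list's own median was at the 26.9 percentile. MBP1 read −4.59, −5.27 and −7.19, while CLN3, the G1 cyclin that starts the cycle, read −3.03, −3.05 and −2.67. The list median of −0.33 became −0.15 with median scaling, −0.17 without vehicle 1 and 0.06 with quantile normalization. CSE4 read −4.00, −4.25 and −5.71 and was the only histone gene over 2-fold lower.

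Bright metabolic lists held few or no such genes, as did the brightest of the 5 bins of all genes, with 1.47% lower. Glycolysis had 0 of 17 on either side, with differences from −0.05 for PGK1 to 0.18 for PFK2, a phosphofructokinase subunit. Ergosterol synthesis had 0 of 24, although IDI1, isopentenyl diphosphate isomerase, came close at 0.97, 0.85 and −0.08. The sphingolipid list had 1 of 30: TSC3, the small activator of serine palmitoyltransferase, read 0.56, 0.72 and −0.49. ORM2, which restrains the same enzyme, read 1.41, 1.24 and 1.82. Vehicle 3 was the lowest array for TSC3 and the highest for ORM2. QCR6, of respiratory complex III, read 0.70, 0.57 and −0.48. TMA10 was the only general stress gene over 2-fold lower, at 2.95, 3.02 and 1.49, and MDJ1, a mitochondrial chaperone, read −1.42, −1.46 and −3.01. GPT2, an acyltransferase of phospholipid synthesis, read −1.37, −1.27 and −2.43.

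Seripauperins and cell wall proteins were higher on vehicle 3 in nearly every case. Over all genes 2709 of 5797 differences were negative. Other lists also had few negative differences: 0 of 6 galactose genes, 1 of 8 flocculins and adhesins and 1 of 17 glycolysis genes. With quantile normalization the medians of seripauperins and cell wall proteins were 0.48 and 0.18, beside 0.11 over all genes. Median, E1A and no scaling raise every difference alike, so they could not turn these medians negative. All 24 seripauperins had a positive difference, with a median of 0.42, but their sequences are so alike that they cannot count as 24 separate measurements. PAU6 read −0.26, −0.28 and 0.13. Of 35 cell wall genes 34 had a positive difference. Their median was 0.24, beside 0.03 over all genes and 0.13 in the brightest of the 5 bins by mean level. GAS1, a glucan-modifying enzyme, was the exception at 4.14, 4.17 and 4.04. Except for PAU17, these differences were under 2-fold. The gap between vehicle 1 and 2 had a median of 0.04 for the seripauperins and 0.08 for the cell wall genes. Those arrays shared a slide and scan day, so their gap leaves out any difference between slides or days. The error of the vehicle 3 differences is therefore not known.

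**Figure D5:**
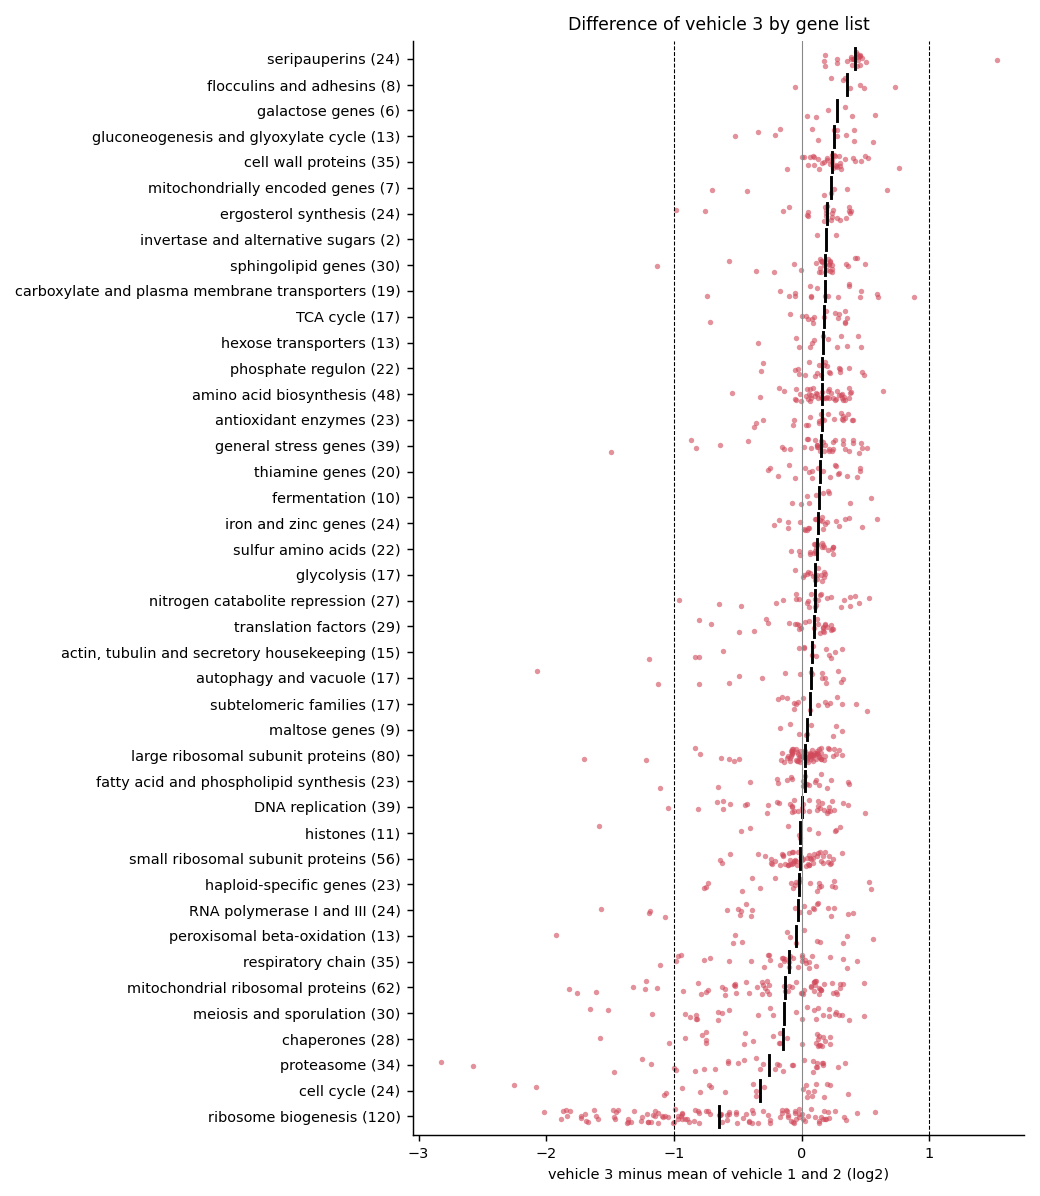
Vehicle 3 minus the mean of vehicle 1 and 2 (log2, relative to each array's 75th percentile) for members of 42 gene lists detected on all 3 arrays; points are genes, black bars list medians and dashed lines 2-fold. The medians run from 0.42 for seripauperins to −0.65 for ribosome biogenesis, and scaling to the E1A probes would move all points up by 2.64.

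Of the 492 lower genes, 78 belonged to a described list, which is 15.9%, beside 19.5% of all genes detected on every array. Ribosome biogenesis made up 8.33% of the 492 and 2.07% of the genes detected on every array. The other 414 lower genes belonged to no list.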

How the data were processed

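Members and gene lists were chosen with earlier results of these data known. The deposited scanner files of the 3 vehicle arrays hold a linear fluorescence intensity per spot, background-subtracted and detrended by Agilent Feature Extraction 11.0.1.1, per the file headers. The submitters' processing notes also name R 3.0.2, in a role that the sources read here do not state. In the authors' deposited value table, 100% of intensity values equalled the linear mean of a probe's spots within a tolerance of 1e-06. It served as an alternative.

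From each log2 processed signal the log2 of the 75th percentile of that array, taken without controls, was subtracted. Outlier spots were dropped and a probe's other spots averaged. Detection needed the software's mark on over 50% of a probe's spots, for any probe of the gene. Genes with several probes took the brightest. Percentiles cover 6199 genes, and those not detected on all 3 arrays share the bottom rank. Of 6256 probes, 5765 matched the RefSeq table of assembly R64, used for names, order and length only since the array's build is older, 462 kept an open reading frame name outside it, and 29 had no gene name. The 42 lists held 1171 distinct genes, and 6 listed names (MEL1, RPL20A, RSM28, HSP150, AAD16 and SAE3) were not matched.

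Named genes were the 20 brightest, the 10 weakest detected, the 12 lowest and 12 highest on vehicle 3, the 6 furthest apart between vehicle 1 and 2, the highest and lowest of each list by level and by vehicle 3 difference, strain and mating markers, and 3 on each side of a threshold. A few others were named after their values had been seen. Python 3.11.15, numpy 2.4.6 and pandas 2.3.3 were used, R 4.3.3 with limma 3.58.1 for normexp (offset 50, on median signals) and quantile normalization, and matplotlib 3.10.9. The counting steps were tested on simulated data. Alternatives were other detection rules, scalings, background correction, folds and leaving out each array. Sequences and promoters were not analysed here. A few genes that the rule names are not reported here.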

Additional observations from a re-analysis of the deposited data

How the results depend on the processing

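No paired analysis was possible because only the vehicle group was used. Genes detected on all 3 arrays numbered 5797, between 5797 and 5915 when an array was left out, 5744 to 5880 under other shares of marked spots, and 5372 when a signal above the highest negative control spot was required. Undetected genes numbered 256, between 256 and 281 when an array was left out, and 136 when 1 marked spot sufficed. Genes over 2-fold lower on vehicle 3 numbered 492, with 312 under quantile normalization, 1018 at 1.5-fold, 0 with scaling to the E1A probes, and 467 to 535 with vehicle 1 or 2 left out. Genes over 2-fold higher numbered 12, with 22 under median scaling, 33 under quantile normalization, 76 at 1.5-fold, 24 without the filter on dim probes, 5651 with scaling to the E1A probes, and 12 to 14 with vehicle 1 or 2 left out. Between vehicle 1 and 2, 459 genes were over 1.2-fold apart and 19 over 1.5-fold. The cause of these shifts was not tested, apart from the thresholds, which count more or fewer genes by construction. Median scaling moved the median difference of all genes from 0.03 to 0.21. The 75th percentile put 97.6% of calls on the lower side, median scaling 94.3%, quantile normalization 90.4% and the E1A probes 0%. At 2-fold, among genes detected on all arrays, ribosome biogenesis held 27 to 50 lower genes under median, quantile and no scaling, normexp, the authors' deposited table and with vehicle 1 or 2 left out, and 0 under the E1A scaling. Of the 42 median percentiles, 39 moved by less than the replicate spread under normexp and 37 without vehicle 3. Without vehicle 3 no difference of that array exists. The E1A scaling and the negative control limit were added after the data had been seen.

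The main limits are that 1 array stands against 2 on another slide and day, that ranks mix transcript amount with probe strength, and that signals near background order nothing.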

Other observations

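Nutrient regulons were spread over the whole range of signal. The 27 genes under nitrogen catabolite repression had a median at the 81.7 percentile. AGP1, a broad amino acid permease, read 4.62, 4.82 and 4.76, and DAL1, allantoinase, −4.10, −3.85 and −4.12. DAL80, a repressor of the same genes, read −2.61, −2.11 and −3.32 and so differed among all 3 arrays. Sulfur amino acid genes had a median at the 78.2 percentile, from the sulfate permease gene SUL1 at −5.39 ± 0.17 (SD, n = 3) to SAH1, of the methyl cycle, at 4.43 ± 0.05. The phosphate regulon lay at the 69.5 percentile, with VTC1, of vacuolar polyphosphate, at 3.47 ± 0.07 and the activator gene PHO4 at −5.21 ± 0.17. Iron uptake genes lay at the 31.9 percentile and zinc genes at 85.6. ZAP1, the zinc-responsive activator, was the weakest of both at −4.69 ± 0.12. Thiamine genes lay at the 19.7 percentile over 21 members, with SNO2 at −6.91 ± 0.12 and SNZ1 at 0.66 ± 0.26.

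Peroxisomal beta-oxidation had a median at the 26.2 percentile. POX1, the acyl-CoA oxidase of its opening step, read −5.56, −5.74 and −5.70. PXA2, of the peroxisomal fatty acid transporter, read −4.69, −4.79 and −6.67 and was the only member over 2-fold lower on vehicle 3. Among 17 autophagy and vacuole genes, PRC1, carboxypeptidase Y, was brightest at 4.12 ± 0.10, and ATG13, a regulator of autophagy, read −2.70, −2.80 and −4.82. The flocculins and adhesins lay at the 24.1 percentile, and FIG2 was the highest of them on vehicle 3, with levels of −2.61, −2.80 and −1.98. Subtelomeric families split: COS genes had a median at the 87.2 percentile, led by COS2 at 3.50 ± 0.13, and the aryl alcohol dehydrogenases at 18.2, with AAD3 at −6.60 ± 0.03. PMA1, the plasma membrane proton pump, read 4.18, 4.14 and 4.11, while its isoform gene PMA2 read −1.11, −1.43 and −0.39.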
